A study of Mus musculus with 6 samples.

Results

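The genes described are Dbp, Tef, Hlf, Nr1d1 and Nr1d2, 5 circadian transcription factor genes read by 10 of the 41174 probes on a mouse liver array that are not controls. Members were all probes that the array files name for these genes. Dbp, Hlf and Nr1d2 had 1 probe each, Tef had 4 and Nr1d1 had 3. All 10 probes lay well above background on all 6 arrays. The series compares livers with and without long exposure to microcystin-LR (MC-LR), a peptide toxin of cyanobacteria that blocks serine/threonine protein phosphatases.

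The livers came from 6 male BALB/c mice kept on a 12:12 h light-dark cycle. In the MC-LR group 3 mice drank water with MC-LR at 100 µg/L for 12 months from 6 weeks of age, and in the control group 3 mice drank sterile water over the same time. The labels describe the mice as independent, and the livers were taken at the end of exposure. The time of day of collection is not given in the sources used here, and its part in the values was not tested. Whether any of the mice shared a cage is not given either. Every animal had a single-colour Agilent array of its own. Slide 1 held controls 1 and 2, and slide 2 held control 3 with all 3 MC-LR samples, so slide 2 alone has both groups. The slides also differ in scan, and slide and scan cannot be told apart.

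DBP, TEF and HLF are the PAR bZIP factors, a family of leucine zipper proteins with a proline and acidic amino acid rich domain that bind D-box sequences. REV-ERB alpha (Nr1d1) and REV-ERB beta (Nr1d2) are nuclear receptors that bind heme and repress genes through ROR response elements, Arntl among them. In liver, CLOCK and BMAL1 (encoded by Arntl) drive both groups through E-boxes, so their transcripts rise and fall over the day, in opposite phase to Arntl. The PAR bZIP factors in turn drive enzymes of detoxification, and the REV-ERB receptors act on the clock and on lipid and bile acid metabolism.

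The 3 start regions shown are those that hold a motif searched for, and the 3 probes shown are of Tef, whose 4 probes all separated the groups, and of Nr1d1, whose probes did not. RefSeq windows (assembly GRCm38.p6) of 250 bases before to 50 bases after a transcript start were matched by symbol for all 5 genes, with 6 windows in all. Both windows of Tef hold the canonical E-box CACGTG, a palindrome that reads alike on both strands, at 127 and 138 bases before the start. It occurs in 7.15% of 32851 such windows. In the sequences, 5′ to 3′, capitals mark the E-box in Tef and, in Nr1d2, the half-site AGGTCA to which REV-ERB and ROR receptors bind.
Tef first window, chr15:81802423-81802722, plus strand: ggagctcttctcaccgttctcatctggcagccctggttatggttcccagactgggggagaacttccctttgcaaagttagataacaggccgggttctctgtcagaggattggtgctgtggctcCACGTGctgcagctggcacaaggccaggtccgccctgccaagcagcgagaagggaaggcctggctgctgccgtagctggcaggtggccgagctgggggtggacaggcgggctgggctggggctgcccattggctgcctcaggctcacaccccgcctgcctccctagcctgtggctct
Tef second window, chr15:81811164-81811463, plus strand: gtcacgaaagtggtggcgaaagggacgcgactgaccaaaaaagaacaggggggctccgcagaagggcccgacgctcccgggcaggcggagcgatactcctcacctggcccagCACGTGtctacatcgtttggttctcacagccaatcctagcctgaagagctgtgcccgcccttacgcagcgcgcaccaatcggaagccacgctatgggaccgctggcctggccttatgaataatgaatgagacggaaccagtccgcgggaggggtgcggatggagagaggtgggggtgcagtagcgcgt
Nr1d2 window, chr14:18239057-18239356, minus strand: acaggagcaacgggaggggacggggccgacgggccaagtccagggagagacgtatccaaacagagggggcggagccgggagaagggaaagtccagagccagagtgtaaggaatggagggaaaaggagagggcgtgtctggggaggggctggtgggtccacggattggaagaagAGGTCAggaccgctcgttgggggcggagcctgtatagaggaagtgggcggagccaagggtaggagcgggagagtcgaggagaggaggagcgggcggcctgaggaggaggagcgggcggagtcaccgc

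The half-site AGGTCA, searched on both strands, occurs in 16.3% of the windows and, among the members, in that of Nr1d2 only. The longer letters TAGGTCA, which contain that half-site, and the D-box letters TTATGTAA and TTACGTAA are in 0 of the 6 member windows and in 2.61%, 0.938% and 0.119% of all windows. A match is a description of these letters only, and sites elsewhere in the genes were not searched.

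Probes are 60 bases long, and their coordinates are in mm9, per the file headers. Exon and UTR annotation of that build was not used here. The Dbp probe lies at chromosome 7, 52965265 to 52965324, that of Hlf at chromosome 11, 90199978 to 90200037, and that of Nr1d2 at chromosome 14, 19037253 to 19037312. The 4 Tef probes lie on chromosome 15 and begin, per the files, at bases 719, 1075 and 3785 of 1 transcript and at base 1330 of another, ENSMUST00000164673. The Nr1d1 probes lie on chromosome 11 and begin at bases 62, 582 and 1919 of its transcript. In that order the Tef probes are A_52_P173309, A_51_P450561, A_52_P485573 and A_52_P658073, and the Nr1d1 probes A_52_P130961, A_52_P130952 and A_51_P223776. A Tef probe (base 719) spans 2106 bases of the genome, 81651816 to 81653921, and an Nr1d1 probe (base 1919) spans 503, 98630526 to 98631028, so both cross an intron. These probes, and the Nr1d1 probe at base 582, were as follows.
Tef, base 719: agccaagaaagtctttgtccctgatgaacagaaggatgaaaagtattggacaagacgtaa
Nr1d1, base 582: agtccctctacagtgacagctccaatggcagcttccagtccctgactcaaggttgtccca
Nr1d1, base 1919: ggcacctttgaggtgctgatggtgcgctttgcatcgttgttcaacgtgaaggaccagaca

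Values are the authors' log2 signals, quantile normalized, and a difference is MC-LR minus control on that scale. Dbp, Tef, Hlf and Nr1d2 were higher on every MC-LR array than on any control array, by 0.99 to 3.03 in the means, while Nr1d1 overlapped between the groups on all 3 of its probes. None of the 10 probes passed limma at an adjusted p under 0.05 over 28507 probes tested, a threshold that 3 probes passed in all (0.0105% of probes). At an unadjusted p under 0.05, 7 of the 10 were higher and 0 lower, where 7.89% of all probes tested were higher and 5.03% lower. On 7 of the 10 the groups did not overlap with MC-LR higher, which held for 11.7% of all probes tested, and with MC-LR lower on 0, which held for 8.54%. Of these 7 probes, 4 read the same gene, Tef. The median difference was 1.46 over the 10 probes, beside 0.00 over all probes tested.

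**Figure D1:**
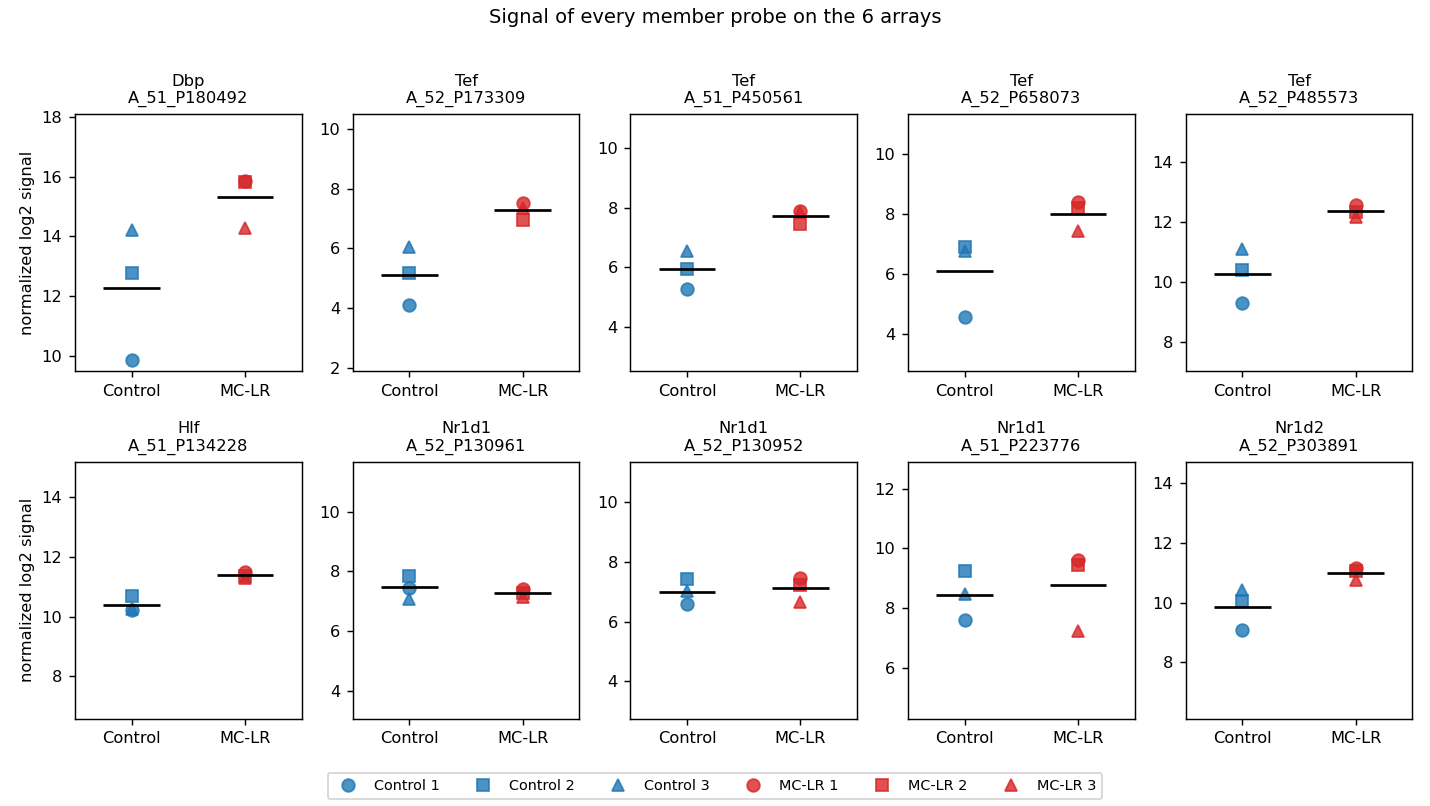
Normalized log2 signal of each of the 10 member probes (1 panel per probe, vertical axes of equal height) in the 3 control and the 3 MC-LR arrays, with 1 marker per array and a line at each group's mean. The 2 groups stand apart for Dbp, Tef, Hlf and Nr1d2 and mix for the 3 Nr1d1 probes, and the controls of Dbp spread over 4.35.

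Dbp, named for its binding to the albumin promoter, had the largest mean difference of the 5 genes and the largest spread among controls. It stood at 9.86, 12.77 and 14.21 in controls 1, 2 and 3 and at 15.84, 15.81 and 14.27 in MC-LR arrays 1, 2 and 3. The lowest MC-LR array lay 0.06 above the highest control, and the controls alone spanned 20.4-fold. The group means were 12.28 ± 2.22 and 15.31 ± 0.90 (SD, n = 3), a difference of 3.03 ± 1.11 (SE), or 8.15-fold (adjusted p = 0.353, limma). Against control 3 alone, on the slide the groups share, the difference was 1.10, or 2.14-fold, and without control 1 it was 1.82. Fitting slide as a fixed block gives the same estimate as control 3 alone, since slide 1 held only controls, with an SE of 1.23 (adjusted p = 0.714).

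Tef, thyrotroph embryonic factor, was higher with MC-LR at all 4 probes. At the brightest, base 3785, the controls stood at 9.31, 10.40 and 11.10 and the MC-LR arrays at 12.57, 12.35 and 12.17. The highest control thus lay 1.06 below the lowest MC-LR array. The means were 10.27 ± 0.90 and 12.36 ± 0.20 (SD, n = 3), a difference of 2.09 ± 0.44 (SE), or 4.25-fold (adjusted p = 0.232, limma). The intron-crossing probe printed above (base 719) stood at 4.12, 5.17 and 6.03 in controls and 7.53, 6.95 and 7.36 with MC-LR, a difference of 2.17 ± 0.47 (SE). The probe at base 1075 stood at 5.28, 5.96 and 6.56 against 7.89, 7.44 and 7.85, a difference of 1.79 ± 0.33 (SE). Controls were in the same order at these 3 probes, with control 1 lowest and control 3 highest.

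The probe of the other Tef transcript (base 1330, at 81646554 to 81646613) read 4.55, 6.91 and 6.78 in controls and 8.41, 8.20 and 7.43 with MC-LR. Its difference of 1.94 ± 0.66 (SE) was close in size, but MC-LR 3 deviated by -0.87 from the mean of MC-LR 1 and 2 here and by 0.12 at base 719. Adjusted p ranged from 0.212 to 0.332 over the 4 probes (limma). Against control 3 alone the 4 differences were 1.17 to 1.26, or 2.25-fold to 2.39-fold. With normexp background correction the 3 dimmer probes differed by 0.89, 1.01 and 1.05, and the brightest by 1.99. The probe at base 1330 differed by 1.17 without control 1.

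Hlf, hepatic leukemia factor, had a difference that was smaller and more even. Controls 1 and 3 stood at 10.23 and 10.25, control 2 lay 0.48 above control 1, and the MC-LR arrays stood at 11.48, 11.37 and 11.29. The groups lay 0.58 apart, and control 3 deviated by -0.22 from the mean of controls 1 and 2, where for Dbp it deviated by 2.89. The means were 10.39 ± 0.27 and 11.38 ± 0.09 (SD, n = 3), a difference of 0.99 ± 0.16 (SE), or 1.98-fold. Hlf had the smallest unadjusted p of the 10 probes, 0.000691, and did not pass after adjustment (adjusted p = 0.178, limma). Against control 3 alone it differed by 1.13, or 2.19-fold, and over 19 alternative settings by 0.90 to 1.14.

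Nr1d2, which encodes REV-ERB beta, stood at 9.10, 10.04 and 10.41 in controls and 11.17, 11.06 and 10.75 with MC-LR. The arrays fell in the same order as for Dbp within the controls, and MC-LR 3 was again the lowest of its group. The means were 9.85 ± 0.68 and 10.99 ± 0.22 (SD, n = 3), a difference of 1.14 ± 0.34 (SE), or 2.21-fold (adjusted p = 0.298, limma). Against control 3 alone the difference was 0.58, or 1.5-fold, and without control 1 it was 0.76.

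Nr1d1, which encodes REV-ERB alpha, did not separate the groups at any probe. The probes at bases 582 and 1919 were highest in MC-LR 1, MC-LR 2 and control 2. The probe at base 62 differed from them and was highest in controls 1 and 2. The intron-crossing probe at base 1919 stood at 7.62, 9.24 and 8.48 in controls and 9.61, 9.45 and 7.25 with MC-LR. MC-LR 1 and 2 lay above every control, and MC-LR 3 lay below every other array, deviating by -2.28 from the mean of MC-LR 1 and 2. The means were 8.45 ± 0.81 and 8.77 ± 1.32 (SD, n = 3), a difference of 0.32 ± 0.72 (SE, adjusted p = 0.878, limma). Without MC-LR 3 the difference was 1.08, and without control 1 it was -0.09.

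The other Nr1d1 probes had a narrower range, 6.57 to 7.85 on all arrays. At base 582 the controls read 6.57, 7.41 and 7.01 and the MC-LR arrays 7.47, 7.21 and 6.64, a difference of 0.11 ± 0.29 (SE). At base 62 the values were 7.46, 7.85 and 7.08 against 7.41, 7.29 and 7.16, a difference of -0.17 ± 0.21 (SE), and 0.21 against control 3 alone. MC-LR 3 was the lowest of its group at all 3 probes. Thra, a thyroid hormone receptor gene that neighbours Nr1d1 on the other strand, stood at 11.46, 11.27 and 11.33 in controls and 11.85, 11.70 and 10.97 with MC-LR. MC-LR 3 was thus the lowest array there too. Thrb, its paralog close to Nr1d2, differed by 0.03 ± 0.15 (SE).

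**Figure D2:**
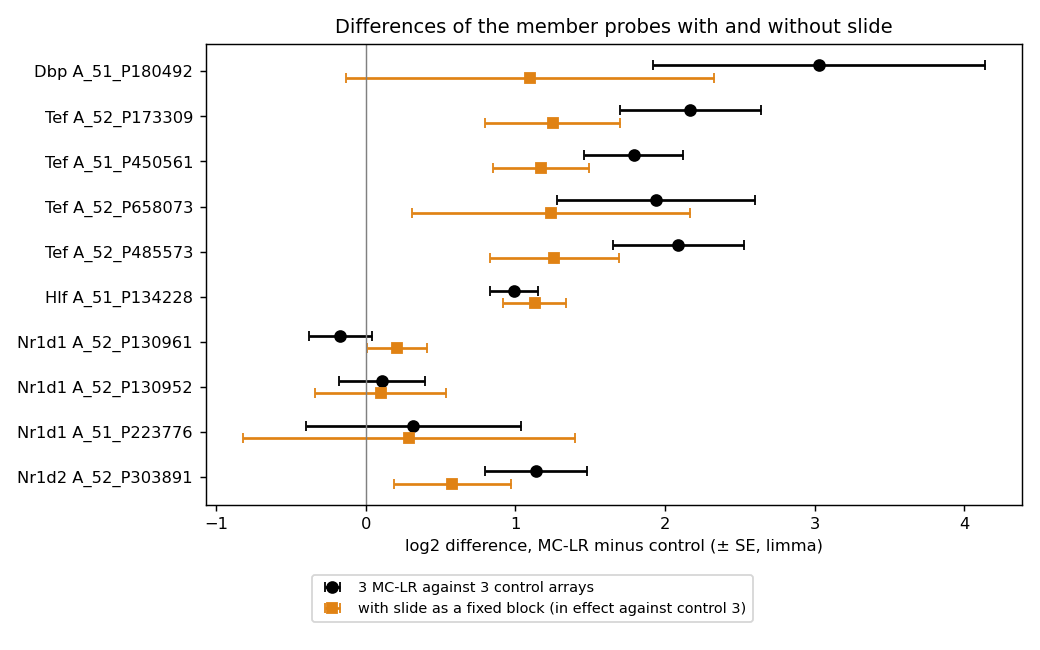
Log2 difference (MC-LR minus control, ± SE from limma) of the 10 member probes, from all 6 arrays (circles) and with slide as a fixed block (squares), which sets the MC-LR arrays in effect against control 3. Dbp falls from 3.03 to 1.10 and the brightest Tef probe from 2.09 to 1.26, while Hlf is at 0.99 and 1.13.

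With slide as a fixed block, 4 of the 10 probes were higher at an unadjusted p under 0.05, Hlf and 3 of Tef, where 7.87% of all probes were, with 0 of the 10 lower beside 7.4%, and 0 passed after adjustment (limma). That fit called 13 probes in all (0.0456%). Without control 3, when slide and group coincide, 0 of the 10 passed, with adjusted p from 0.0591 upwards (limma), in a fit that called 70 probes (0.246%). Array weights gave control 3 the least weight (0.279) and controls 1 and 2, both on slide 1, 2.63 and 1.42. The control level in that fit thus rests mainly on slide 1, which held no MC-LR array. In it Hlf and Tef at bases 719, 1075 and 3785 passed, with adjusted p from 0.0329 to 0.0370 (limma). The same fit called 763 probes higher and 440 lower, of 28507 tested.

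The size of the difference was compared between the genes. For the brightest probe of each gene, the difference of 1 gene was set against that of another array by array, in 10 pairs, with an exact two-sided permutation test whose smallest p is 0.1. No pair could pass the threshold with 3 arrays a group. The difference of Tef was larger than that of Nr1d2 by 0.95 ± 0.15 (SE, exact p = 0.1, adjusted p = 0.25), and by 0.68 against control 3 alone. At the same p, Tef minus Hlf was 1.10 ± 0.52 over all arrays but 0.13 against control 3 alone. Tef minus Nr1d1 was 1.76 ± 0.79 and 0.97, and Dbp minus Nr1d1 was 2.70 ± 1.05 and 0.81, in the same order. Nr1d2 and Nr1d1, the REV-ERB pair, differed by -0.82 ± 0.72 (Nr1d1 minus Nr1d2, exact p = 0.4). Against control 3 alone, Dbp minus Tef was -0.16 and Dbp minus Hlf was -0.04, beside 0.94 and 2.04 over all arrays.

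The same arrays were low at most probes. Control 1 was the lowest of all 6 arrays at 8 of the 10 probes, and MC-LR 3 the lowest MC-LR array at 8. Control 3 was the highest control at 5, those of Dbp, Nr1d2 and the 3 probes of the main Tef transcript. The range among the controls exceeded the difference between the groups at 6 of the 10 probes.

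Genes with the profile nearest to each member were found among 14740 named genes. The measure was the root mean square difference over the 6 arrays, after each profile was centred on its own mean. It is not scaled to a member's own spread, which was 2.05 for Dbp, 1.17 for Tef, 0.908 for Nr1d1, 0.704 for Nr1d2 and 0.52 for Hlf. Values therefore do not compare between members, and the nearest gene need not be close. Nearest to Dbp were Per3, a clock repressor (0.561), and Tef (0.988), then Olfr320 (1.09). Nearest to Nr1d2 was Bhlhe40, a clock-linked repressor (0.0932), followed by Lrrc75b (0.157) and Cyp26b1, a retinoic acid hydroxylase (0.163). Nearest to Tef were Olfr996 (0.202), Coq10b, a coenzyme Q binding protein (0.209), and Rxfp2 (0.362). Hlf lay nearest to Lrp4 (0.0689), Abhd6, a monoacylglycerol lipase (0.0893), and Aqp11, an aquaporin (0.109). Nr1d1 at base 1919 lay nearest to Trib3, a pseudokinase gene induced by stress (0.288), Dnah11 (0.325) and Myom1 (0.453), of which none is a clock gene. Trib3 stood at 8.57, 9.74 and 9.72 in controls and 10.68, 10.74 and 8.61 with MC-LR, again low in MC-LR 3. Per3, Olfr320, Olfr996, Rxfp2, Lrrc75b, Dnah11 and Myom1 were well above background on 3 to 5 of the 6 arrays. Each of these genes thus passed the filter through a single group only. For Per3 that group was MC-LR, with 2 of the controls well above background, so its nearness to Dbp is a description only.

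**Figure D3:**
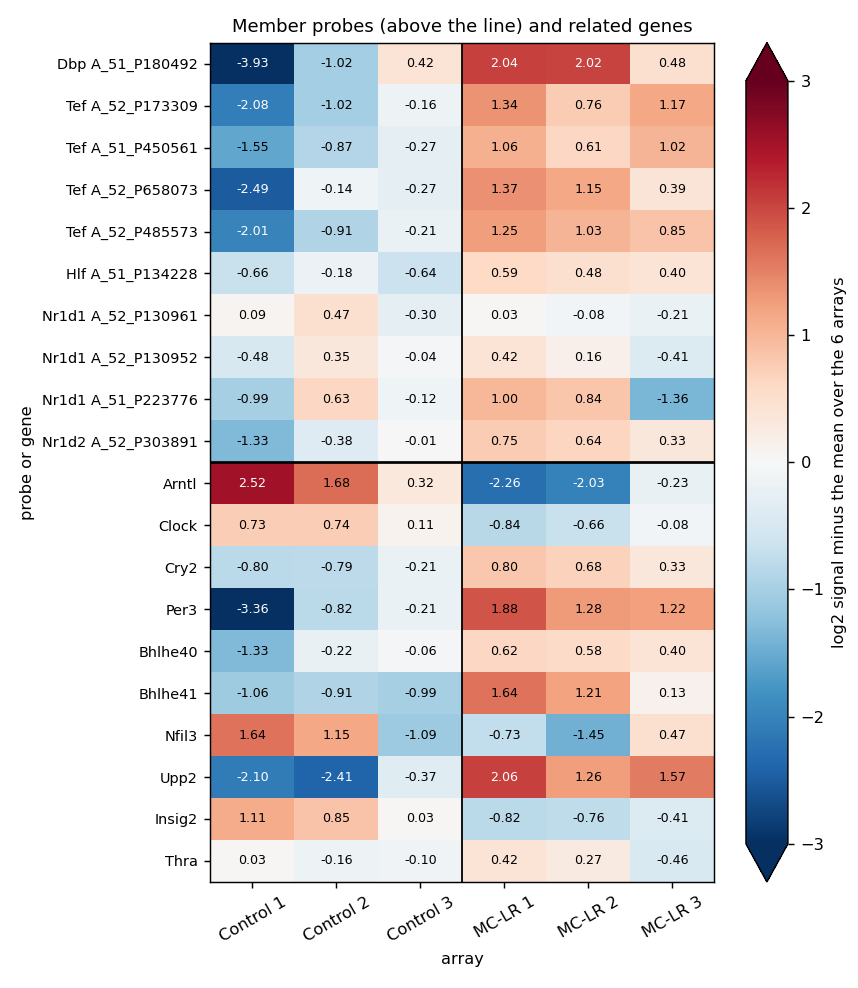
Log2 signal of each member probe (above the line) and of 10 related genes, minus the mean over the 6 arrays, 1 column per array, with colours limited to -3 and 3. Dbp runs from -3.93 in control 1 to 2.04 in MC-LR 1, and Arntl from 2.52 to -2.26 in the same arrays.

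Upstream of the members, Arntl and Clock lay below 0 and several E-box-driven repressors above 0, with 0 genes past the adjusted threshold in any list below (3 of 18908 genes passed, 0.0159%, limma). Of all genes, 7.52% were higher and 5.36% lower at an unadjusted p under 0.05, with a median of -0.01, and 11.2% and 9.2% had groups that did not overlap. Of the 3 activators tested, Arntl and Clock were lower at that p. Arntl stood at 10.39, 9.55 and 8.20 in controls and 5.61, 5.84 and 7.64 with MC-LR, a difference of -3.02 ± 0.73 (SE), and Clock differed by -1.06 ± 0.26. Control 3 and MC-LR 3 were thus the nearest arrays between the groups for Arntl, as they were for Dbp. Npas2, a paralog of Clock, differed by -0.49 over all arrays and by 0.25 against control 3 alone. Arntl differed by -1.83 and Clock by -0.64 against that control.

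Of the 8 E-box-driven repressors, 5 were well above background on all 6 arrays, and these lay above 0 with a median of 1.11, where 3 were higher at an unadjusted p under 0.05. Cry2, a cryptochrome, differed by 1.21 ± 0.21 (SE), and by 0.82 against control 3 alone. Per2, a period gene, differed by 1.79 ± 0.52 (SE, 1.09 against control 3), and Bhlhe40 by 1.07 ± 0.34 (0.59 against control 3). Per1, another period gene, differed by 1.11 and by 0.14 against control 3, and Cry1 by 0.33 and 1.05. Per1 and Cry1 were not at that p. Ciart, Per3 and Bhlhe41 were well above background in 1, 2 and 1 of the controls and in all MC-LR arrays. They passed the filter only through the MC-LR group, so they enter neither this count nor this median. Bhlhe41 read 3.28, 3.43 and 3.35 in controls, and 5.98, 5.55 and 4.48 with MC-LR.

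Factors that share the members' binding sites lay on both sides of 0. Nfil3, the bZIP repressor that competes with the PAR bZIP factors for D-boxes, stood at 12.89, 12.40 and 10.16 in controls and 10.52, 9.80 and 11.72 with MC-LR. Its groups overlapped, and the difference of -1.14 ± 0.82 (SE) was 0.52 against control 3 alone. Among 5 C/EBP relatives, bZIP factors of the liver, 0 were higher and 1 lower at an unadjusted p under 0.05. These were led by Cebpd, at -0.68 ± 0.23 (SE), and Cebpa, at 0.48 ± 0.20.

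Of 14 known or proposed PAR bZIP target genes in liver, 13 lay above 0 (Aldh1a1 at 0.00 after rounding) with a median of 0.56, and 7 were higher and 1 lower at an unadjusted p under 0.05 (limma). Upp2, a uridine phosphorylase, stood at 8.52, 8.21 and 10.25 in controls and 12.68, 11.88 and 12.19 with MC-LR, a difference of 3.26 ± 0.55 (SE, 2.00 against control 3). Cyp2a4, a steroid hydroxylase, stood at 15.36, 15.86 and 16.59 against 17.43, 17.35 and 17.39, a difference of 1.45 ± 0.30 (0.80 against control 3). The median of the list was 0.72 with slide as a fixed block. Probes of Cyp2a4 and its near-identical neighbour Cyp2a5 may read both transcripts.

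Of 13 REV-ERB target genes, 5 lay above 0 and 8 below, with a median of -1.06, and 1 was higher and 4 lower at that p. Arntl and Clock are among the 4, and Insig2, which holds SREBP factors in the endoplasmic reticulum, differed by -1.33 ± 0.29 (SE, -0.69 against control 3). With slide as a fixed block the median of the list was 0.19, or -0.07 without Npas2, which 1 control did not show well above background. The corepressor complex, through which REV-ERB receptors act, and the heme genes had a median of 0.09 over 8 genes. Among these, Alas1, which encodes the rate-limiting enzyme of heme synthesis, was the 1 gene higher at that p (1.12 ± 0.35, SE), and Gps2 differed by 0.18 ± 0.09. The clock kinases and ubiquitin ligases had a median of -0.09 over 8 genes, from -0.27 ± 0.18 (Csnk1e) to 0.13, with 0 at that p in either direction.

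**Figure D4:**
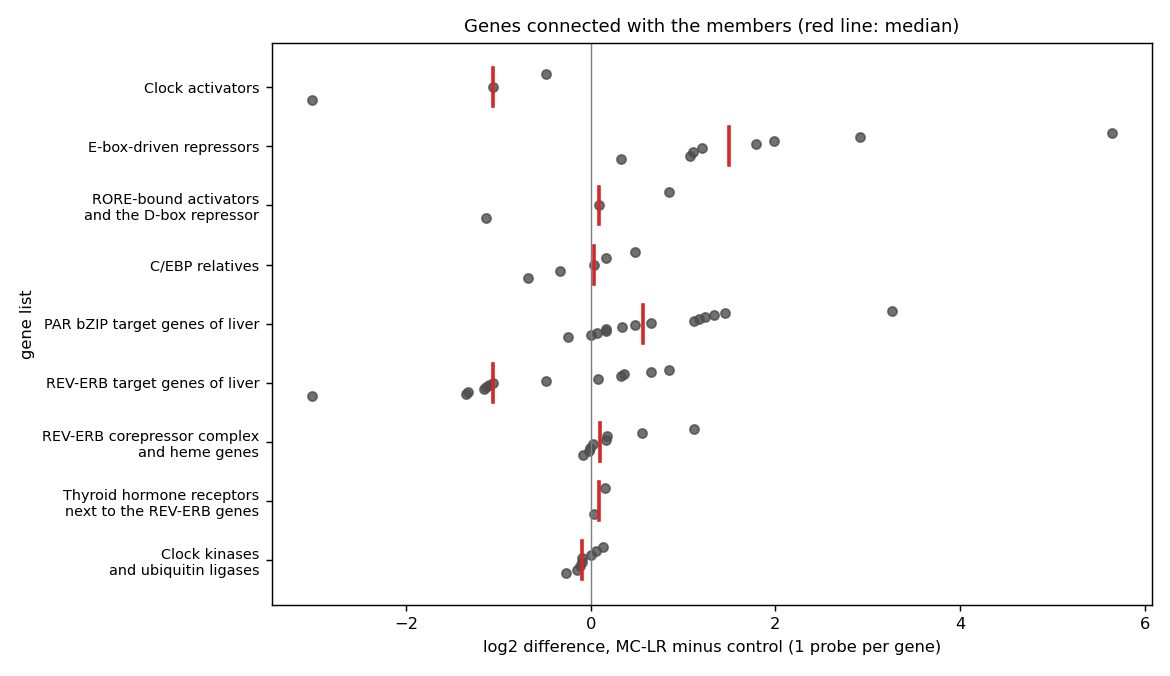
Log2 difference (MC-LR minus control) of each tested gene in 9 lists connected with the members, 1 point per gene and a red line at the list's median. Arntl lies lowest at -3.02, and the 3 E-box-driven repressors Ciart, Per3 and Bhlhe41 passed the filter only through the MC-LR group. The corepressor genes lie near 0 with the exception of Alas1 and Hmox1.

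In whole liver, fewer cells of a type and less RNA per cell cannot be told apart. Hepatocyte markers were bright on every array. Their mean log2 signal, over 7 markers, was 14.94 to 15.08 in controls and 14.99 to 15.06 with MC-LR, with a median difference of 0.01. Markers of other cells were also present. All 8 Kupffer cell, all 8 endothelial and all 6 tested neutrophil markers lay below 0 over all arrays, with medians of -0.36, -0.38 and -0.62, of which 0, 3 and 0 were at an unadjusted p under 0.05. These medians became -0.91, -0.12 and -1.21 once slide was a fixed block, where 4 endothelial markers lay above 0. Over all arrays, 1 of 8 stellate cell, 2 of 7 cholangiocyte, 4 of 8 lymphocyte and 2 of 6 blood and platelet markers lay above 0. In that order, 1, 0, 0 and 1 were higher and 1, 1, 0 and 2 lower at an unadjusted p under 0.05. Of all 18908 genes, 9731 lay below 0. The mean signal of the Kupffer cell list was 11.58 to 12.52 in controls and 11.20 to 11.92 with MC-LR, and that of the endothelial list 9.75 to 9.88 and 9.28 to 9.64, and that of the neutrophil list 7.93 to 8.72 and 7.22 to 8.37. Their part in the members' values was not tested. In controls 1 and 2, on slide 1, 68.33% and 64.86% of spots lay well above background, and on the arrays of slide 2 71.06% to 73.66%. Per array 0 spots were saturated, and the number of arrays limits the precision.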

How the data were processed

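Liver RNA of 6 mice, 3 per group by the sample titles, was labelled with Cy3, per the labels. The submitters' processing notes name Agilent Feature Extraction 10.7 for the signal intensity deposited by the authors, and the log2 values analysed are the authors' deposited ones, quantile normalized in GeneSpring per the series' design text. Each deposited column correlated at 0.9982 or more with the logged processed signal intensity of the same array. For the member probes the values differed by at most 0.0021 from quantile normalization repeated here, so scale and direction are known and genes are not centred.

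Probes well above background on all 3 arrays of a group were tested (28507 of 41174) with limma 3.58.1 in R 4.3.3, two-sided, 4 residual and 2.18 prior degrees of freedom, Benjamini-Hochberg over all of them. Steps were checked on simulated data. A gene in a list is its brightest tested probe, named through RefSeq accessions (27668 probes), symbols or synonyms (6060) or the file (7446). The members and lists were chosen with earlier results of these data known. From each list up to 4 genes past the threshold, otherwise the 2 with the smallest p, are named, with the 3 genes nearest to each member. Cyp2a5 and Hmox1 fall outside this rule and were named after their values were seen, and 2 genes that the rule names are not reported here. Same-numbered mice did not deviate together (correlations of -0.304 to 0.169, beside -0.196 to 0.346 for other pairs), so the numbers were not used as pairs. With 3 mice per group, centred within the group, these correlations cannot decide whether a pairing exists. Alternatives were other scalings, background correction, filters, slide, replicate number, variance models and each array left out.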

Additional observations from a re-analysis of the deposited data

How the results depend on the processing

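Over the 10 member probes and 18 or 19 alternatives each, 173 of 185 values kept their direction and their side of the threshold, 4 passed it and 8 changed sign. Part of this was fixed in advance. The filters, the trended variance model and the replicate block leave the difference itself unchanged and could move only its adjusted p. Slide as a fixed block and slide 2 alone give the same difference and are counted separately. With array weights the differences that passed were 2.76, 2.17 and 2.66 for Tef at bases 719, 1075 and 3785 and 1.03 for Hlf. That fit, with its control level mainly from slide 1, called 763 probes higher and 440 lower, of 28507 tested. All 8 sign changes were at Nr1d1. The probe at base 62 was at 0.21 with slide as a fixed block and within slide 2. Leaving out single arrays, it ranged from -0.37 to 0.02, that at base 582 from -0.10 to 0.35 and that at base 1919 from -0.09 to 1.08. The count of probes called higher, 3, was 1 under 75th percentile or median scaling and with the strict filter, 8 with slide as a block and 0 within slide 2. With the replicate number as a block it was also 0, and no call of a member changed. Called lower were 5 with slide as a block. Leaving out single arrays, 1 to 56 were called higher and 0 to 14 lower, the most without control 3. With slide as a block, list medians moved to 0.52 (ROR receptors and Nfil3), -0.26 (C/EBP), 0.72 (PAR bZIP targets), 0.19 (REV-ERB targets), 0.04 (kinases and ligases) and -0.64 (clock activators, from -1.06). Cholangiocyte and lymphocyte markers moved from -0.13 to -0.76 and from -0.03 to -0.64. Over genes well above background on all 6 arrays, a restriction chosen after seeing the data, the median of the clock activators was -2.04 and that of the E-box-driven repressors 1.11 in place of 1.5. The causes were not tested. The lone control on slide 2 is assumed to vary like the other arrays.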
